A study of Mus musculus with 4 samples.

Results

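Prostaglandin and leukotriene synthesis was followed through 10 mouse genes in skin taken 48 h after a photodynamic treatment. The genes were chosen by name: the cyclooxygenases Ptgs1 and Ptgs2, the terminal synthases Ptges, Ptgds and Ptgis, the leukotriene genes Alox5 and Alox5ap, and the lipoxygenases Alox12, Alox15 and Alox8. All 10 were found among 17016 gene symbols matched on the array, through 14 probes in total. Ptgs2 and Alox12 had 2 probes each, Alox5 had 3, and the others had 1 each. All 14 probes gave usable spots on the 4 arrays, and Ptgis was not well above background on any of them.

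The treatment makes a transient burst of reactive oxygen species when light reaches a photosensitiser that cells build from methyl aminolevulinate. In the tail treated group the cream was put straight on the tail and, after 2.5 h in the dark, red light of 636 nm was given at 10 J/cm2. The tail control group had no treatment. In the back treated group the animals were shaved, the same cream and dark time were used, and the light dose was 2.5 J/cm2. The back control group had no treatment, and whether its animals were shaved is not given in the sources used here, nor are strain, sex or age. Each group held 3 animals by the design and is represented by 1 one-colour array. Whether that array holds a pool of the 3 animals or the RNA of 1 of them is not stated. Light dose, shaving and skin site therefore differ together between tail and back, there is no replicate check on any difference, and no p-value is given.

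Arachidonic acid is freed from membrane lipids by phospholipases A2. Cyclooxygenases turn it into prostaglandin H2, which the terminal synthases convert into the prostaglandins E2, D2 and I2, and Ptgs2 is the cyclooxygenase that inflammatory stimuli and growth factors switch on. Alox5, with its activating protein Alox5ap, begins leukotriene synthesis, mainly in myeloid cells, while keratinocytes of the epidermis use several lipoxygenases of their own. In skin these lipids are known as mediators of redness, pain, leukocyte entry and keratinocyte growth.

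The promoters of Ptgs2 and Ptges, the inducible cyclooxygenase and the synthase that often works with it, and those of Alox12 and Alox8, which were lower together on the back treated array, are shown because the results turn on these genes. Each is the 250 bases before the transcription start, read 5′ to 3′ on the gene's strand, from RefSeq sequence of build GRCm38.p6. Capitals mark matches to any of 8 motifs. The Ptgs2 promoter is at chr1:150099781-150100030 on the plus strand. The Ptges promoter is at chr2:30903298-30903547, that of Alox12 at chr11:70255371-70255620 and that of Alox8 at chr11:69197844-69198093, all on the minus strand. The Ptges window lies inside the annotated span of its gene and that of Alox12 overlaps it, so these genes have a further start upstream.
Ptgs2: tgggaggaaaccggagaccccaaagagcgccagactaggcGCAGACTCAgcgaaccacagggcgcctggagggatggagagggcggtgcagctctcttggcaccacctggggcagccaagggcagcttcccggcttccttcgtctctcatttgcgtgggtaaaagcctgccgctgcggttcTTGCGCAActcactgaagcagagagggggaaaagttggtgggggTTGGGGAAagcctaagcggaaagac
Ptges: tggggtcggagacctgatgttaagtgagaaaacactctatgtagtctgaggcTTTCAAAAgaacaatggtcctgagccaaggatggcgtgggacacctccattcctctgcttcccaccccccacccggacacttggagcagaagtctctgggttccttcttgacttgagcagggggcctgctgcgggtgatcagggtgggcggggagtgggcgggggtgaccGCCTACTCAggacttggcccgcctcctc
Alox12: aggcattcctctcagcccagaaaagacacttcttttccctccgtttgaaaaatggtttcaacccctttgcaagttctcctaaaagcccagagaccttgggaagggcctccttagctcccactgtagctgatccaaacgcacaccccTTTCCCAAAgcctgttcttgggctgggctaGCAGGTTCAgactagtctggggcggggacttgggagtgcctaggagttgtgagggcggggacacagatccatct
Alox8: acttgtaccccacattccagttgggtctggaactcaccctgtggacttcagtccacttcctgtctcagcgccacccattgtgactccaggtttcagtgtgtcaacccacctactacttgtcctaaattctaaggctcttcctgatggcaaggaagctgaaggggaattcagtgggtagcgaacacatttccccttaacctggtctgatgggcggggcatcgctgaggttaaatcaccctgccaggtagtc

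The motifs were searched on both strands of the window of 300 bases that ends 50 bases after the start, for the 7 genes with a RefSeq promoter (Ptgs1, Ptgs2, Ptges, Ptgds, Alox5, Alox12 and Alox8). The Ptgs2 window holds 2 matches to the C/EBP motif TTNNGNAA, of which TTGCGCAA, from -69 to -62 relative to the start, reads the same on both strands. It also holds the core of the cAMP response element (TGACGT), which overlaps an E-box (CACGTG) just after the start, outside the printed bases. The C/EBP motif is present in 40.7% of all 32851 promoters, that core in 7.51% and the E-box in 7.15%. The antioxidant response element TGANNNNGC was matched in Ptgs2, Ptges, Ptgds and Alox12, and it occurs in 41.3% of all promoters. The AP-1 motif TGANTCA, present in 7.81% of promoters, and the NF-kB motif, present in 8.46%, were each matched in Ptgds and in no other of the 7 windows. The full cAMP response element TGACGTCA and the TATA box TATAAA, present in 1.79% and 13.6% of promoters, were matched in none of the 7. The windows of Alox8, Ptgs1 and Alox5 held no match. A match is a description of the letters and not evidence of binding.

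Signals are given as log2 values relative to the 75th percentile of the same array, called scaled log2 below, so that 0 means a spot as bright as that percentile. This percentile was a processed signal of 909 on the tail treated, 7261 on the tail control, 1204 on the back treated and 1860 on the back control array, so the tail control array was by far the brightest. The scanner's own error of a difference between 2 arrays had a median of 0.20 on the log2 scale and covers spots, not animals. Differences of 2-fold or more were called, and a gene not well above background on 1 array gave only a bound. The epidermal keratins Krt5, Krt14, Krt1 and Krt10 were saturated on all 4 arrays, in keeping with the labelled tissue. The labels name tail skin while the extraction protocol names tail epidermis.

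**Figure D1:**
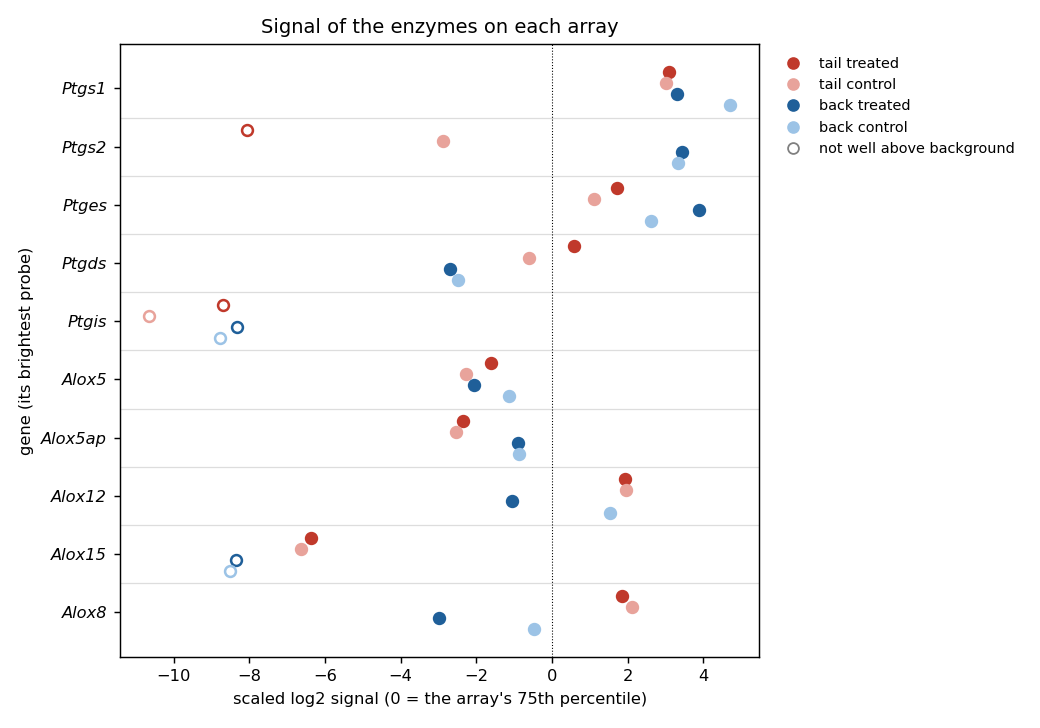
Scaled log2 signal of the brightest probe of each of the 10 genes (rows) on the 4 arrays (1 point per array, tail in red and back in blue, treated dark and control pale); open points were not well above background. Ptgs2 lies at 3.43 and 3.34 on the back arrays, against -2.89 on the tail control array and an open point on the tail treated array, and Alox8 and Alox12 have their lowest points on the back treated array.

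The first comparison asked what differed in the tail after treatment. Ptgs2 was not well above background in the treated tail and was at least 12.0-fold lower there than in the untreated tail. Ptgds, the lipocalin-type synthase of prostaglandin D2, was 2.26-fold higher. The other 7 genes with a value differed by less than 2-fold, so that 1 of 9 was higher and 1 of 9 lower. Among all 12852 genes with a value in this comparison, 27.2% were called higher and 6.55% lower, or 33.7% in all. The median of the 9 was 0.19, against 0.33 for all genes.

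Ptgs2 was read by 10 spots of its brighter probe and by a second probe. On the tail treated array the 9 usable spots of the first probe had processed signals from 2.26 to 5.91, none of them well above background, while the 1 spot left out as an outlier was. On the tail control array 9 usable spots ran from 922 to 1018, all well above background. The spots of the arrays thus did not overlap on unscaled signals, which also carry the difference in brightness between the arrays. After scaling, Ptgs2 stood at -8.07 on the tail treated and -2.89 on the tail control array. The second probe stood at -8.53 on the tail treated array, where it was not well above background, and at -2.54 on the tail control array, which gave a bound of at least 15.2-fold lower. The lowest signal counted as well above background on the tail treated array was 10.3, and the bounds are set against it. Both probes therefore gave the same reading at this scaling. With normexp background correction Ptgs2 had no value in the tail, because its bound no longer pointed lower. It also had none in the alternatives that left bounds out.

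The other cyclooxygenase, Ptgs1, which many tissues make without a stimulus, stood at 3.08 on the tail treated and 3.00 on the tail control array. That difference of 0.077 was smaller than the spot error of 0.20, while it was -0.97 with cyclic loess, an adjustment for trends with brightness, and -2.05 with spike-in scaling. Its processed signal on the tail control array was 58202, and the spot was not flagged as saturated. It lay close to signals that were, such as 62314 for Pla2g4e on that array. Whether this limited the Ptgs1 value there, and so its differences from that array, was not tested. Ptges, the inducible synthase of prostaglandin E2, stood at 1.72 on the tail treated and 1.12 on the tail control array, a difference of 0.60 that exceeded the spot error and not 2-fold. It was 0.056 with normexp background correction, 0.17 with cyclic loess and -1.52 with spike-in scaling. Ptgds stood at 0.57 on the tail treated and -0.60 on the tail control array, a difference of 1.18. With normexp background correction it was 0.84, below 2-fold, and with scaling on spike-in controls it was -0.95, so its direction depended on the scaling. Markers of melanocytes, a cell type that can express Ptgds, passed 2-fold upward for 2 of 4 genes in the same comparison (median 0.71), with a summed level of 15.7 times the 75th percentile on the tail treated and 8.43 times on the tail control array. The part of these cells in the Ptgds value was not tested. In bulk RNA, fewer cells of a type and less RNA per cell cannot be told apart.

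Alox5, which makes the precursor of the leukotrienes, stood at -1.60 on the tail treated and -2.27 on the tail control array. Its other probes differed by 0.46 and 0.63, beside 0.67 for the brightest, so the 3 probes lay on the same side of 0. Alox5ap, which hands arachidonic acid to Alox5, stood at -2.36 on the tail treated and -2.54 on the tail control array. Its difference of 0.19 was within the spot error, but it was 1.58 with normexp and -1.94 with spike-in scaling. Over the alternatives other than spike-in scaling that gave a value, Alox5ap ran from -0.032 to 1.58 and changed sign. Alox5 ran from 0.51 to 1.53 over these, the highest with normexp, and was at -1.46 with spike-in scaling. The direction of Alox5 in the tail thus turned with spike-in scaling alone. The processing alternatives were not run for any of the cell type marker lists. Over the same pair of arrays, 7 of 8 neutrophil markers with a value were higher and 0 lower (median 2.63), where 27.2% of all genes were called higher. Their summed level was 144 times the 75th percentile on the tail treated and 8.65 times on the tail control array, most of it from genes that keratinocytes can also express, S100a8 and S100a9. Both were saturated on the tail treated array, so the sum there is a lower limit. The neutrophil granule genes Camp and Ngp were not well above background on either array. The part of these cells in the Alox5 and Alox5ap values was not tested.

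The lipoxygenases of the epidermis differed by less than 2-fold, except with spike-in scaling, where Alox12 and Alox8 were at -2.14 and -2.38. Alox12, the platelet-type enzyme that is also made in epidermis, stood at 1.94 on the tail treated and 1.96 on the tail control array. Its second probe differed by -0.21, just past its spot error. Alox8, known in mouse skin as a lipoxygenase induced by phorbol ester, stood at 1.86 on the tail treated and 2.11 on the tail control array, a difference of -0.25. Alox15, the lipoxygenase of macrophages and eosinophils, was dim but detected on both, at -6.36 on the tail treated and -6.64 on the tail control array. Its processed signal on the tail treated array was 11.1, next to the detection limit, and its difference of 0.28 was within its spot error of 0.37. It was 4.68 with normexp, -0.57 with quantile normalization, -0.58 with cyclic loess and -1.84 with spike-in scaling. The median pixel of its spot was 41 over a local background of 27 on the tail treated array, and 112 over 29.5 on the tail control array. With normexp, 91.5% of all genes called in the tail were higher, so the upward shift was not particular to Alox15. All 3 eosinophil markers with a value were higher (median 1.69), where 27.2% of all genes were called higher. The rise was not particular to this list: 4 of 4 endothelial and 4 of 4 adipocyte markers were higher too (medians 1.81 and 2.11). Langerhans and dendritic cell markers were higher in 1 of 7 and lower in 1. The eosinophil markers Epx and Prg2 had low processed signals of 17.6 and 22.0 on the tail treated array. The defining members Siglecf and Il5ra were not well above background on either tail array.

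The second comparison asked the same of the back. Here Ptgs2 did not differ beyond the spot error, while Alox12 and Alox8 were 6.03-fold and 5.64-fold lower, Ptgs1 was 2.63-fold lower and Ptges was 2.42-fold higher. Of 8 genes with a value, 1 was therefore higher and 3 lower. Among all 13457 genes with a value, 13.6% were called higher and 12.6% lower, or 26.2% in all. The median of the 8 was -0.57, against -0.011 for all genes. Ptgis and Alox15 were not well above background on either back array and have no value.

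Ptgs2 was bright on both back arrays, at 3.43 on the back treated and 3.34 on the back control array. Its processed signal over the usable spots of the first probe was 12961 ± 684 on the back treated array (SD over 10 spots of 1 array) and 18859 ± 487 on the back control array (SD over 8 spots of 1 array). Unscaled, the spots did not overlap, whereas after scaling the difference was 0.085 for this probe and 0.16 for the second, both within the spot error of 0.20. Ptgs1 stood at 3.31 on the back treated and 4.71 on the back control array, a difference of -1.40. After quantile normalization it was -0.87 and no longer 2-fold. Ptges stood at 3.89 on the back treated and 2.61 on the back control array, a difference of 1.28, which was 0.77 with spike-in scaling. Of the prostaglandin E2 branch, the synthase was thus higher and the inducible cyclooxygenase was not, at this threshold. Ptgds stood at -2.70 on the back treated and -2.50 on the back control array, a difference of -0.21, about the size of its spot error of 0.21.

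Alox12 stood at -1.06 on the back treated and 1.53 on the back control array, a difference of -2.59. Its second probe stood at -2.68 and -0.14 on the same arrays, in that order, a difference of -2.54. Alox8 stood at -2.98 on the back treated and -0.48 on the back control array, a difference of -2.50. Under the alternatives that gave a value these ran between -3.10 and -2.39 for Alox12 and between -3.01 and -2.09 for Alox8. Alox12b and Alox12e, epidermal lipoxygenases outside the 10 of which Alox12b is needed for the skin barrier, were 4.08-fold and at least 6.23-fold lower. Markers of differentiated keratinocytes were lower in all 3 cases with a value, with a median of -3.01, namely Krt2, Ivl and Casp14. Their summed level was 168 times the 75th percentile on the back treated and 189 times on the back control array, a sum to which saturated spots contribute. Of the platelet markers, 3 of 5 were higher and 0 lower. The part of these cells in the Alox12 and Alox8 values was not tested.

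Alox5 stood at -2.07 on the back treated and -1.15 on the back control array, a difference of -0.92. Its other probes gave -1.12 and -0.70, so 1 of the 3 passed 2-fold. Alox5ap stood at -0.89 on both back arrays and differed by -0.0074. Alox5 and its activating protein thus did not differ alike, and the difference between the pair was not tested. On the same arrays 5 of 7 markers of Langerhans and dendritic cells were lower (median -1.25), with a summed level of 15.8 times the 75th percentile on the back treated and 44.0 times on the back control array. Neutrophil markers were higher in 7 of 9 cases (median 3.56) and macrophage markers in 5 of 9 (median 1.84), with none lower in either list. The part of these cells in the Alox5 and Alox5ap values was not tested.

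**Figure D2:**
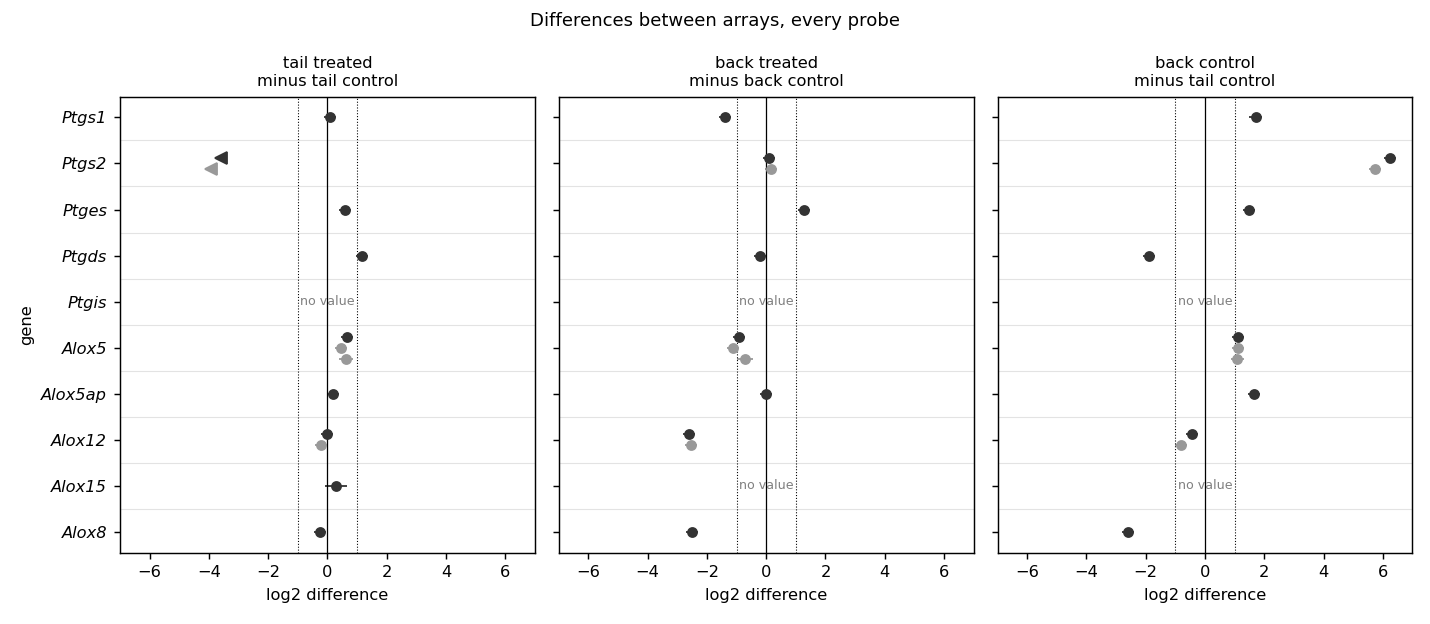
Log2 difference of every probe of the 10 genes in the 3 comparisons, with the brightest probe in black, the others in grey and bars of 1 spot error (scanner error, 1 array per group). Triangles are bounds, dotted lines mark 2-fold, and the probes of Ptgs2, Alox5 and Alox12 lie close together in each panel.

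Between the skins the responses differed in size for several genes. Of the 7 genes measured on all 4 arrays, the back response minus the tail response was -2.57 for Alox12, -2.24 for Alox8, -1.59 for Alox5, -1.47 for Ptgs1 and -1.39 for Ptgds. It was 0.68 for Ptges and -0.19 for Alox5ap, the last within its spot error of 0.29. These differences depended on the scaling: with spike-in scaling they were -0.96 for Alox12, -0.63 for Alox8, 0.021 for Alox5, 0.14 for Ptgs1, 0.23 for Ptgds, 2.29 for Ptges and 1.42 for Alox5ap. Spike-in scaling changes each array by 1 constant, so it moved all 7 by the same amount and kept their order. Ptgs1 was also below 2-fold with normexp, quantile normalization and cyclic loess, at -0.91, -0.58 and -0.34, and Ptgds with normexp, at -0.95. Ptges was at 1.15 with normexp, and Alox5ap at -1.56 with normexp. With 1 array per group no such difference was tested. Ptgs2 could not be entered, because it was not well above background on the tail treated array.

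The third comparison set the untreated skins side by side. Ptgs2 was 74.9-fold higher in untreated back skin than in untreated tail skin after scaling. Ptgs1, Alox5ap, Ptges and Alox5 were also higher, by 3.26-fold, 3.16-fold, 2.81-fold and 2.18-fold, while Alox8 was 6.06-fold and Ptgds 3.71-fold lower. Of 8 genes with a value 5 were higher and 2 lower, against 27.4% higher and 17.2% lower among all 12791 genes with a value, or 44.6% in all. The median of the 8 was 1.31, against 0.19 for all genes. This comparison shares the tail control array with the tail comparison and the back control array with the back comparison, so a property of either array enters both.

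Ptgs2 stood at 3.34 on the back control and -2.89 on the tail control array. The second probe gave a difference of 5.74, beside 6.23 for the first, and with spike-in scaling the first gave 5.17. The processed signals also kept this order without any scaling, at 18853 on the back control and 982 on the tail control array, although the tail control array was the brighter one. Ptges stood at 2.61 on the back control and 1.12 on the tail control array. Ptgs1 stood at 4.71 on the back control and 3.00 on the tail control array, a difference of 1.71. That difference was 0.90 after quantile normalization, 0.66 after cyclic loess and 0.64 with spike-in scaling, below 2-fold in each. Unscaled, Ptgs1 was at 48631 on the back control and 58202, near saturation, on the tail control array. With spike-in scaling Ptges, Alox5ap and Alox5 were at 0.43, 0.60 and 0.064, also below 2-fold.

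Ptgds stood at -2.50 on the back control and -0.60 on the tail control array, a difference of -1.89. Melanocyte markers were lower in 3 of 4 cases over this pair, with Tyrp1 at -4.54, Pmel at -4.46 and Dct at -3.54, and a summed level of 0.80 times the 75th percentile on the back control and 8.43 times on the tail control array. Alox8 stood at -0.48 on the back control and 2.11 on the tail control array, a difference of -2.60. Alox12 stood at 1.53 on the back control and 1.96 on the tail control array, and its probes differed by -0.43 and -0.82. Alox8 and Alox12 were thus both lower after treatment in the back, while between the untreated skins Alox8 alone of the pair passed 2-fold, except with spike-in scaling, where Alox12 was at -1.49. Alox5ap stood at -0.89 on the back control and -2.54 on the tail control array, and Alox5 at -1.15 on the back control and -2.27 on the tail control array. All 3 probes of Alox5 lay between 1.08 and 1.13 here. Over the same pair, 7 of 7 markers of Langerhans and dendritic cells were higher (median 2.39), with a summed level of 44.0 times the 75th percentile on the back control and 7.34 times on the tail control array. Other leukocyte lists were higher too, with 4 of 4 T cell markers (median 3.05), 4 of 6 neutrophil markers (median 2.14) and 6 of 8 macrophage markers (median 1.77). The part of these cells in the Ptgds, Alox5 and Alox5ap values was not tested.

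Across the 4 arrays the order of levels, scaled to the 75th percentile, differed from gene to gene. Ptgs2 and Ptges were highest on the back treated array, and for Ptgs2 the back arrays did not differ beyond the spot error. Ptgs1, Alox5 and Alox5ap were highest on the back control array, although the 2 back arrays were indistinguishable for Alox5ap. The tail arrays of Ptgs1 were within the spot error at this scaling and not with the others given above. Ptgds was highest on the tail treated array, and Alox8 and Alox12 were highest on the tail control array, where the brightest probe of Alox12 was within the spot error of its tail treated value and the second probe was not. The range over the arrays was largest for Alox8 among the 7 genes measured on all 4, at 5.10, and smallest for Alox5, at 1.13.

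The genes with the most similar profile were sought among 8492 genes measured on all 4 arrays with a range of at least 1, by Euclidean distance between scaled log2 values centred on their mean over 4 arrays. Nearest to Ptges were Spred3, Igf1r and Lum, at distances of 0.23, 0.25 and 0.28. Nearest to Alox5 were Dock4, Ptdss2 and Paf1, at distances of 0.043, 0.054 and 0.096. Each profile has 4 points and the likeness was not tested. Ptgs2 was not entered, as it was not well above background on the tail treated array.

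The other genes of the pathway were taken from 4 lists of 57 genes, of which 51 were usable on the array. In the tail 12 of 39 with a value were higher and 3 lower (median 0.37). For the back 10 of 44 were higher and 10 lower (median -0.059), and for the untreated skins 10 of 40 were higher and 11 lower (median -0.20). These shares stand beside the shares of all genes given above. The processing alternatives were not run for these lists, nor for the cell type markers. Spike-in scaling moved the median of all genes in the tail from 0.33 to -1.68, so the directions given for the tail depend on the scaling. The lists are described in the order of the pathway.

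Of genes that release arachidonic acid or handle related lipids, 3 of 9 were higher in the tail and none lower, namely the phospholipases Pla2g2e at 2.43, Pla2g6 at 2.29 and Pla2g2d at 1.47. The main releasing enzyme, the cytosolic phospholipase Pla2g4a, had no 2-fold difference in any comparison, at -0.95 for the tail, -0.30 for the back and 0.90 for the untreated skins. In the back, 2 of 11 were higher and 2 lower. The secreted phospholipase Pla2g10 was at least 8.82-fold higher and Pla2g4e 2.14-fold higher, whereas Pla2g5 was 8.95-fold lower and the fatty acid amide hydrolase Faah 3.35-fold lower. Between the untreated skins 2 of 10 were higher and 3 lower, with Faah at 3.80, Pla2g2d at 1.76, Pla2g2e at least 14.2-fold lower and Pla2g4e at least 2.66-fold lower.

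Of the other terminal synthases and lipoxygenases, 1 of 11 was higher in the tail and none lower. That gene was the thromboxane synthase Tbxas1 at 1.57, with a processed signal of 27.4 on the tail treated and 73.9 on the tail control array, both low. In the back 6 of 13 were lower and 1 higher, with a median of -0.91. Besides Alox12b and Alox12e these included Prxl2b, a prostamide and prostaglandin F synthase, at least 3.91-fold lower, and Mgst2, a glutathione transferase that can make leukotriene C4, 3.36-fold lower. Lta4h, which makes leukotriene B4, differed by -0.31 for the tail, -0.21 for the back and 0.081 for the untreated skins. Between the untreated skins 3 of 10 were higher and 2 lower. The hematopoietic prostaglandin D synthase Hpgds was 56.4-fold higher in the untreated back, at 0.79 on the back control and -5.03 on the tail control array, opposite in direction to Ptgds, the other synthase of that prostaglandin.

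Of genes for inactivation and transport, 4 of 10 were higher in the tail and 1 lower. The glutamyl transferases Ggt1 and Ggt5 and the dipeptidase Dpep1, which trim leukotrienes, were at 2.15, 1.31 and 1.77, all from low signals. The prostaglandin transporter Slco2a1 was at -1.26 in the tail and 1.25 in the back. In the back 4 of 9 were higher and none lower, among them Hpgd, the main inactivating dehydrogenase of prostaglandins, at 1.29, the reductase Ptgr2 at 1.18 and the leukotriene hydroxylase Cyp4f18 at 1.23. Hpgd was at 0.97 in the tail and -2.39 between the untreated skins, and its second probe had the same sign in the back and between the skins. Between the untreated skins 1 of 10 was higher and 4 lower. Dpep1 was at 1.38, the efflux pump Abcc4 at -1.47 and Ggt1 at least 2.77-fold lower.

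Of the receptors, 4 of 9 were higher in the tail and 2 lower. Ptger4, a receptor of prostaglandin E2, was 11.6-fold lower, at -4.85 on the tail treated and -1.31 on the tail control array. It was at -1.14 in the back, also lower. The cysteinyl leukotriene receptor Cysltr1 was 4.52-fold lower and the prostaglandin D2 receptor Ptgdr2 2.75-fold higher. In the back 3 of 11 were higher and 2 lower. The prostaglandin E2 receptor Ptger2 was at least 7.58-fold higher, and the leukotriene B4 receptors Ltb4r1 and Ltb4r2 were 2.66-fold and 2.30-fold higher. Ptger3 was 2.43-fold lower in the back by its brighter probe, at low signals, and its other probe had the opposite sign. Between the untreated skins Ptger3 was 24.9-fold and Ltb4r2 4.64-fold lower, and Ptgdr and Tbxa2r were 2.86-fold and 2.54-fold higher, the last 2 from low signals, so that 4 of 10 were higher and 2 lower in this list.

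**Figure D3:**
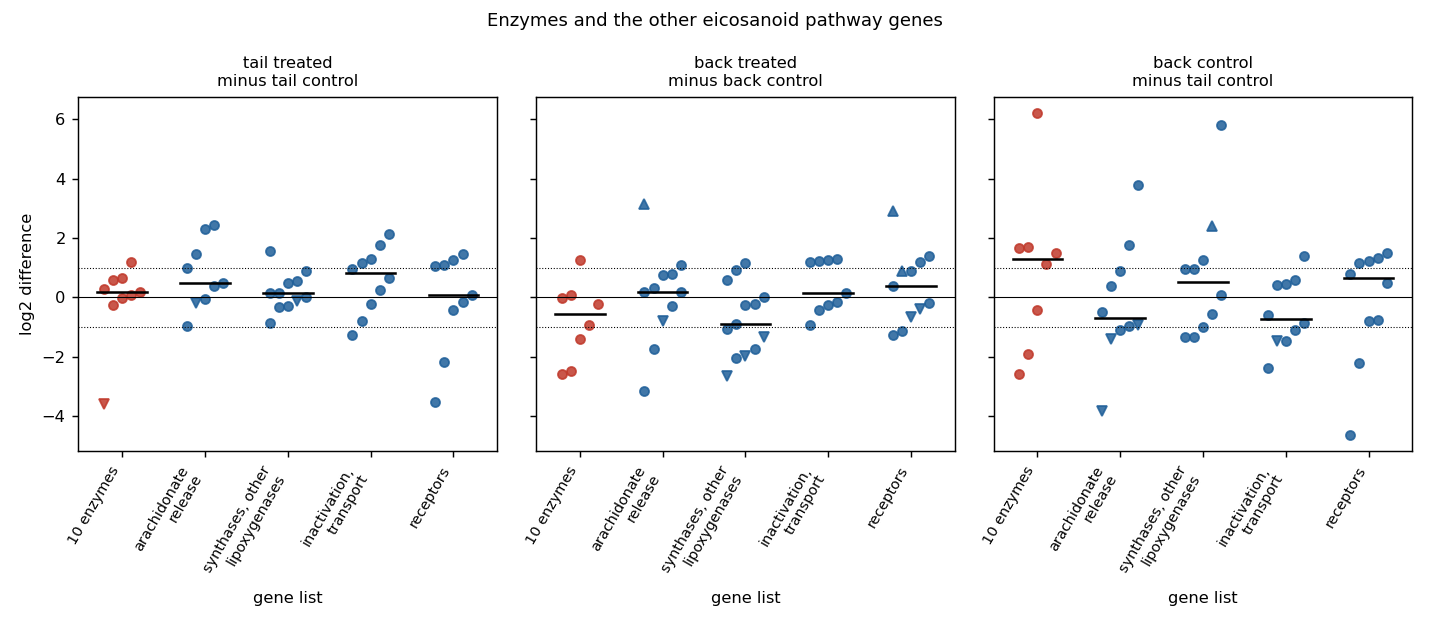
Log2 difference of the 10 enzymes (red) and of the other pathway genes with a value (blue), by list, in the 3 comparisons; triangles are bounds, bars are medians and dotted lines mark 2-fold. The medians of the 10 enzymes lie at 0.19, -0.57 and 1.31 in the 3 panels, and the lists spread to both sides of 0 in each.

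**Figure D4:**
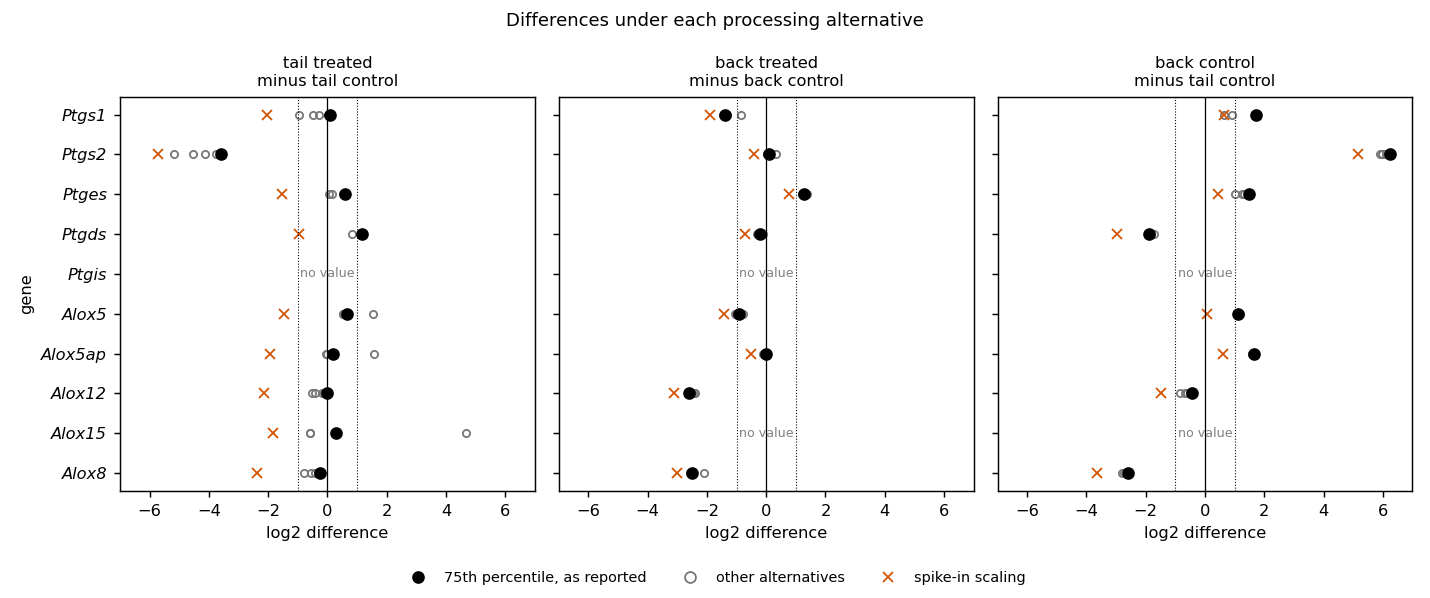
Log2 difference of each of the 10 genes under every processing alternative: black points are the reported values, open points the other alternatives and orange crosses scaling on spike-in controls. In the tail the crosses all lie below 0. Ptgs2 has no point in the tail with normexp or where bounds are left out. None of its other points there lies above -3.56. In the back Alox12 and Alox8 have no value above -2.39 and -2.09.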

How the data were processed

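RNA of 4 groups was measured on 1 one-colour Agilent array each. The deposited scanner tables hold the processed signal, an intensity that is background-subtracted by Feature Extraction 10.5.1.1 per the file headers, while the submitters' processing notes give 10.7. The authors' deposited value table is on a log2 scale, and its differences matched log2 processed signal plus a constant within 0.001 for 99.9% or more of probes. The array design uses build mm8, so no design coordinates are given. Of 41174 probes, 24375 (59.2%) matched 1 RefSeq symbol of build GRCm38.p6 by accession.

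Each array was divided by its 75th percentile before log2. The brightest probe stood for a gene, and outlier spots were left out. A call meant 2-fold or more, and dim or saturated spots gave bounds. With 1 array per group, no test was possible, and the scanner's spot error is the only error given. limma 3.58.1 (R 4.3.3) gave normexp (offset 50), quantile and cyclic loess alternatives. Normexp used the pixel median in place of the planned pixel mean, which the files used here do not hold. There were 12 alternatives. The members and lists, of which up to 4 called genes per list and comparison are named by size of difference, were chosen with earlier results of these data known.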

Additional observations from a re-analysis of the deposited data

Results flagged for a closer look

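For 2 of the 10 genes the treated array lay on opposite sides of its control in the skins, with both differences past the spot error. Ptgs1, Ptgs2 and Alox5ap also had opposite signs, but at least 1 of their differences was within the spot error. Ptgds was higher in the treated tail by 1.18 on the log2 scale and was at -0.21 in the treated back, the second value being about the size of its spot error. Alox5 was at 0.67 in the treated tail and -0.92 in the treated back, and its 3 probes had the same signs. With spike-in scaling the signs were no longer opposite: Ptgds was at -0.95 in the treated tail and -0.72 in the treated back, and Alox5 at -1.46 and -1.44. Neither difference between the skins was tested, because each group had 1 array.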

How the results depend on the processing

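Of the members' values under 12 alternatives, 247 stayed within 0.40 of the reported value on the log2 scale, 44 moved further and 1 that had been called changed direction. Members not called in the tail also changed sign there, as given with each gene above. Most of the shifts came from scaling on 6 spike-in probes, which moved the median of all genes to -1.68 for the tail, -0.50 for the back and -0.79 for the untreated skins, beside 0.33, -0.011 and 0.19 as reported. Ptgds in the tail then turned to -0.95. The count of members called became 8 in the tail (0 higher and 8 lower) and 4 between the untreated skins (1 higher and 3 lower), and the medians became -1.94 for the tail, -1.08 for the back and 0.064 for the skins. The median was -0.42 in the tail and 0.66 between the skins with cyclic loess, 0.90 between the skins with quantile normalization, and -0.11 in the back with no filter. In the tail 1 member was called when bounds were left out, with a signal of at least 200 and in the authors' deposited table. With normexp, Alox5, Alox5ap and Alox15 in the tail were at 1.53, 1.58 and 4.68. That made 3 members called higher and 0 lower there, and Ptgs2 had no value. Among all genes called in the tail, 80.6% were higher, against 91.5% with normexp, 57.8% with quantile normalization, 52.9% with cyclic loess and 1.15% with spike-in scaling. Between the untreated skins the share was 61.4%, against 47.3%, 46.8% and 16.3% with the last 3 of these, and in the back 51.8%, against 18.3% with spike-in scaling. The cause of these shifts was not tested. No paired analysis was possible because each group had 1 array. Signals near 10.3 to 22.3, the lowest counted as well above background, limit what can be said of Ptgis and Alox15.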
